A study of Avicennia schaueriana with 18 samples.

Results

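The cell wall biosynthesis heading of the study's supplementary list of transcripts that differed between sites names 35 distinct transcripts of the mangrove tree *Avicennia schaueriana*. Without the cellulose synthases of secondary walls, which are similar to CESA4, CESA7 and CESA8, 32 transcripts remained of the 49490 with deposited counts, and these 32 are described here. The list had been drawn from leaves for 30 of them and from stems for 3, and 1 of these, similar to CSLG1, stood in both. The 32 transcripts have 30 distinct best matches in *Arabidopsis thaliana*, because 2 are similar to IRX9-L and 2 to COB. The list gives examples that the authors took from their test of site differences in leaf and stem counts. The paper describes its cell wall transcripts as higher in equatorial samples, so the members were chosen in 1 direction. The differences that listed them are given below as a description, without a test.

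The RNA came from a leaf, a stem and a flower sample of each of 6 adult flowering trees standing at least 100 m apart. Trees St1, St2 and St4 grew at a subtropical site, sampled at the end of winter in August 2014, and trees Eq4, Eq5 and Eq6 at an equatorial site, sampled at the start of the dry season in July 2014. No tree was treated, and each gave 1 library per tissue, 18 in all. The air at sampling was warmer and drier for every equatorial tree than for any subtropical one. The paper also places northern and southern trees in different genetic populations. Site, season, date, air conditions and genetic population cannot be told apart in this design, and each group rests on 3 trees.

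A plant cell wall is a mesh of cellulose microfibrils held in hemicelluloses and pectins. While a cell grows, its thin primary wall is loosened and extended. Cells of the xylem and fibres then add a thick secondary wall of cellulose, xylan and lignin, which stiffens stems and lets vessels carry water under tension. In Arabidopsis, NAC transcription factors start this programme, and mutants that lack its enzymes often show irregular, collapsed xylem, from which the IRX names come.

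Of the members, 2 are similar to regulators, 10 to genes of xylan synthesis, 3 to oxidases of the laccase and peroxidase families that polymerise lignin, and 6 to genes of cellulose formation. A further 2 are similar to cellulose synthase-like genes, 6 to a mixed group of pectin, xyloglucan, sugar supply and other acetylation genes, and 3 to glucanases and a leucine-rich repeat protein. For 2 of the oxidases the study designed PCR primers, shown here because they mark which transcript each name refers to. It used its primers for qRT-PCR of transcripts that differed between sites in leaves, and reports a difference for all of its targets. The pair for the transcript similar to LAC4 (As_15146) and the pair for that similar to the peroxidase AT5G66390 (As_19837) run 5′ to 3′ as follows.
As_15146, left: acgcaacacctgtaacaacc
As_15146, right: tggcaaacatcagtgagtggtc
As_19837, left: atcctatgcgtcccagttgc
As_19837, right: tggtcaccagaacttcatcgg
The 4 primers are 20 to 22 bases long, and between 50% and 55% of their bases are G or C.

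Levels are given as CPM, that is counts scaled to one common library total, with TMM factors computed over the 18 libraries. The deposited counts came to between 5055480 and 15802680 per library. Transcript lengths were not used here, so levels are compared between libraries and not between transcripts. Also, a bulk level cannot tell fewer cells of a type from less RNA per cell.

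Of these libraries, 2 stood apart. The flower library labelled Eq6 went against its label. Of 65 transcripts counted in every subtropical and in no equatorial leaf and stem library, it counted 53, like the subtropical flowers with 48 to 59, whereas the flowers labelled Eq4 and Eq5 counted 3 each. Of 36 transcripts with the opposite pattern it counted 6, against 31 in each of the flowers labelled Eq4 and Eq5. The Eq6 stem had the highest level of the 6 stems for 26 of the 32 members, and for 15 of them it exceeded 5 times the median of the other stems. By a count from leaves alone, which separates stems less sharply, the Eq6 stem went with its label. Of 207 transcripts found in every equatorial and no subtropical leaf it counted 187. The other equatorial stems counted 184 and 189, and the subtropical stems 127 to 150. Of 265 transcripts with the opposite pattern it counted 95, against 80 and 85 in the other equatorial and 194 to 225 in the subtropical stems. Results that rest on either library are given with and without it.

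Markers of the labelled tissues were checked with 2 short lists. The summed level of 6 transcripts similar to genes of photosynthesis was 605 to 885 CPM in subtropical and 200 to 324 CPM in equatorial leaves, 175 to 276 CPM in subtropical and 89.4 to 208 CPM in equatorial stems, and at most 107 CPM in any flower. The summed level of the transcripts similar to CESA4, CESA7 and CESA8, which mark cells that lay down secondary walls, was 143 to 367 CPM in subtropical stems and 88.0 to 1645 CPM in equatorial stems, the highest being Eq6. It was 48.7 to 123 CPM in subtropical flowers and 49.9 to 138 CPM in flowers labelled equatorial, which overlap the equatorial stems and lie below the subtropical ones. In leaves it was 4.97 to 8.2 CPM at the subtropical site and 9.04 to 59.3 CPM at the equatorial site, so it moved with the differences of flowers and stems from leaves given below, and its part in them was not tested. Both lists were themselves chosen by the study on leaf differences between sites, and no marker of flowers was used.

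**Figure D1:**
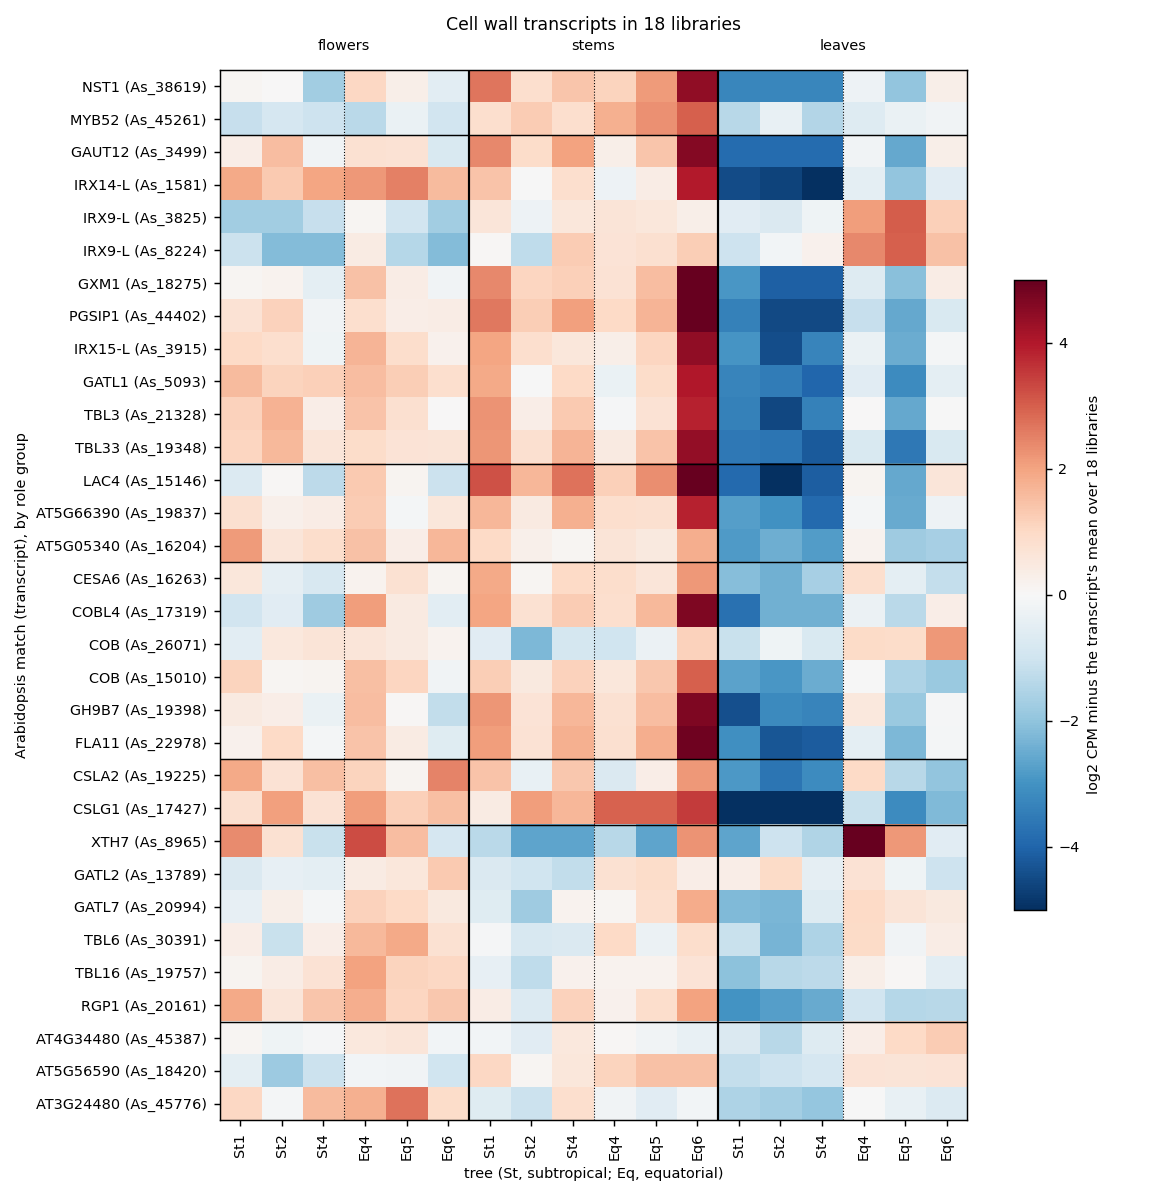
Level of each of the 32 transcripts (rows, in role groups separated by lines) in each of the 18 libraries (columns, by tissue and tree), as log2 CPM minus the transcript's own mean, with colours ending at -5 and 5. Most rows are lowest in the subtropical leaves and highest in the Eq6 stem.

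Stems had more of the secondary wall transcripts than leaves. With both sites weighted equally, 23 of the 32 members were higher in stems and none was lower, where 18.3% of all 37761 transcripts tested were higher and 14.8% lower. The median log2 fold change of the members was 3.16, against 0.04 over all transcripts tested, and 20 of the 23 were higher in the stem than in the leaf of the same tree in 6 of 6 trees. The weights of this comparison are at right angles to the difference between sites that chose the members, but it uses the same leaf libraries. Low values in the subtropical leaves had helped to list the members, so its p-values are not free of that choice. The members' median was 2.88 within equatorial trees, whose leaves were the higher ones in the list, and 4.01 within subtropical trees. Above 0 were 27 of the 32 within equatorial and 29 within subtropical trees. The count was 22 to 24 when any single library was left out, and 23 with the tree as a block.

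Both regulators were among the 23. The transcript similar to MYB52 (As_45261), a MYB factor of the secondary wall network in Arabidopsis, had 9.23, 12.3 and 9.15 CPM in stems St1, St2 and St4 and 17.6, 25.1 and 41.1 CPM in stems Eq4, Eq5 and Eq6. In leaves it had 1.82, 3.80 and 1.69 CPM in the subtropical and 3.18, 3.91 and 4.43 CPM in the equatorial trees. Every stem thus lay above every leaf, by a log2 fold change of 2.44 (SE 0.27, adjusted p = 6.58e-06). The transcript similar to NST1, a NAC factor that switches on wall thickening in fibres, was at 3.05 to 38.8 CPM in stems. It had 0 counts in every subtropical leaf and 0.27 to 2.01 CPM in equatorial ones. Against a floor of 3 counts over the subtropical leaves, subtropical stems were at least 59.4-fold higher.

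In the xylan group 8 of 10 members rose in stems, with log2 fold changes from 4.47 to 6.73. The transcript with most counts of this group, similar to TBL33 (As_19348), belongs to a family of acetyltransferases of which this member acts on xylan. It had 53.5, 20.3 and 38.1 CPM in the subtropical stems (St1, St2 and St4) and 15.8, 31.3 and 245 CPM in the equatorial stems (Eq4, Eq5 and Eq6). Its leaves were far lower, at 0.80, 0.76 and 0.45 CPM in subtropical and 6.76, 0.81 and 6.74 CPM in equatorial trees, a log2 fold change of 5.04 (SE 0.68, adjusted p = 3.52e-05). The largest fitted change was that of GAUT12, which in Arabidopsis helps build the end sequence of xylan chains. Its subtropical leaves had 0 counts, so the fitted value depends on the prior count, and subtropical stems were at least 91.8-fold higher while equatorial stems were 13.4-fold higher than leaves by their means. The other 6 are similar to IRX14-L (backbone synthesis), PGSIP1 and GXM1 (addition and methylation of glucuronic acid side chains), IRX15-L, GATL1 and TBL3 (acetylation). Over the 3 subtropical leaves, PGSIP1 and GXM1 had 2 counts each, IRX14-L and TBL3 4 each, IRX15-L 5 and GATL1 10. Their fitted values thus also rest on few leaf counts.

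The 2 transcripts similar to IRX9-L, a glycosyltransferase of the xylan backbone, were the exceptions in that group. As_3825 had 0.75, 0.32 and 0.72 CPM in subtropical and 0.76, 0.72 and 0.56 CPM in equatorial stems, and 0.23, 0.19 and 0.34 CPM in subtropical and 2.44, 4.86 and 1.21 CPM in equatorial leaves. As_8224 had 0.68, 0.16 and 1.81 CPM in subtropical and 1.14, 1.27 and 1.78 CPM in equatorial stems, and 0.23, 0.57 and 0.79 CPM in subtropical and 4.23, 6.48 and 2.11 CPM in equatorial leaves. For both, equatorial stems lay below all equatorial leaves, and the averaged log2 fold changes of -0.43 and -0.45 did not pass the test (adjusted p = 0.616 and 0.657). Only uniquely mapped reads were counted, so any read that matched both transcripts was left out. How many such reads there were was not tested, and both levels are uncertain to that extent.

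All 3 lignin oxidases rose in stems. LAC4 encodes a laccase that oxidises monolignols in Arabidopsis stems. Its transcript had 212, 72.9 and 153 CPM in the subtropical stems and 52.5, 117 and 948 CPM in the equatorial stems, the last being Eq6, and in leaves 1.37, 0.475 and 1.13 CPM in the subtropical and 25.3, 3.78 and 34.5 CPM in the equatorial trees. No stem overlapped any leaf, and the log2 fold change was 5.66 (SE 0.80, adjusted p = 5.58e-05). The transcript similar to AT5G66390, a class III peroxidase, had 90.9, 40.1 and 100.7 CPM in subtropical and 51.9, 50.6 and 420 CPM in equatorial stems. Its leaves stood at 4.10, 3.42 and 1.81 CPM in subtropical and 26.9, 4.86 and 24.2 CPM in equatorial trees, all below the lowest stem (log2 fold change 3.92, SE 0.58, adjusted p = 8.93e-05).

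In the group of cellulose formation 5 of 6 members rose, all but the COB transcript As_26071. COBRA proteins are anchored to the cell surface and order the deposition of cellulose. The other COB transcript, As_15010, had 98.3, 57.8 and 91.3 CPM in subtropical and 61.9, 105 and 326 CPM in equatorial stems, and 6.38, 5.32 and 7.34 CPM in subtropical and 41.3, 13.9 and 11.2 CPM in equatorial leaves. Its stems again all lay above its leaves (log2 fold change 3.29, SE 0.45, adjusted p = 4.56e-05), whereas As_26071 stayed between 0 and 3.83 CPM in all 18 libraries. The others are similar to COBL4 and FLA11, known from secondary walls of stems, GH9B7, an endoglucanase-like protein, and CESA6, a cellulose synthase of primary walls whose log2 fold change of 2.34 was the smallest of the 5.

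Of the cellulose synthase-like members, that similar to CSLG1 (As_17427) showed the smallest adjusted p of the 32. Both its leaf and its stem values had been used to list it. It had 8.41, 27.5 and 19.99 CPM in subtropical and 49.3, 48.9 and 73.1 CPM in equatorial stems, against 0 counts in all 3 subtropical leaves and 2.77, 0.54 and 1.21 CPM in equatorial leaves. Stems were at least 175-fold higher at the subtropical site and 37.9-fold higher by their means at the equatorial site (fitted log2 fold change 7.91, SE 0.62, adjusted p = 8.00e-07). The transcript similar to CSLA2, a mannan synthase, rose by a log2 fold change of 3.04.

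In the mixed group of pectin, xyloglucan, sugar supply and other acetylation genes, 2 of 6 members were higher in stems, RGP1 and TBL16. RGP1 converts UDP-arabinose between its ring forms for pectin and other arabinose-bearing polymers. Its transcript (As_20161) had 32.9, 15.8 and 55.9 CPM in subtropical and 29.1, 46.6 and 102 CPM in equatorial stems, against 2.96, 3.51 and 4.18 CPM in subtropical and 12.9, 9.18 and 9.36 CPM in equatorial leaves (log2 fold change 2.88, SE 0.36, adjusted p = 1.83e-05). The call for TBL16 (log2 fold change 0.81, SE 0.29, adjusted p = 0.0431) was lost in 9 of the 12 fits that left out 1 library, all but those without the St4 leaf, the Eq4 leaf or the St2 stem, with adjusted p up to 0.154. XTH7, GATL2, GATL7 and TBL6 did not pass, with log2 fold changes between -2.40 and 0.77. GATL7 passed when the St4 leaf was left out (adjusted p = 0.044).

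In the last group 1 of 3 members rose. The transcript similar to AT5G56590 (As_18420), a member of the glucanase family that can cut callose, had 18.9, 9.72 and 13.6 CPM in subtropical and 20.1, 25.5 and 25.5 CPM in equatorial stems, and 3.87, 4.37 and 4.97 CPM in subtropical and 14.6, 14.2 and 14.4955 CPM in equatorial leaves. Every stem was above the leaf of its tree (log2 fold change 1.18, SE 0.23, adjusted p = 9.94e-04). The family member AT4G34480 (log2 fold change -0.12) and the leucine-rich repeat protein AT3G24480 (0.84, adjusted p = 0.0779, and 0.036 without the St2 stem) did not pass.

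**Figure D2:**
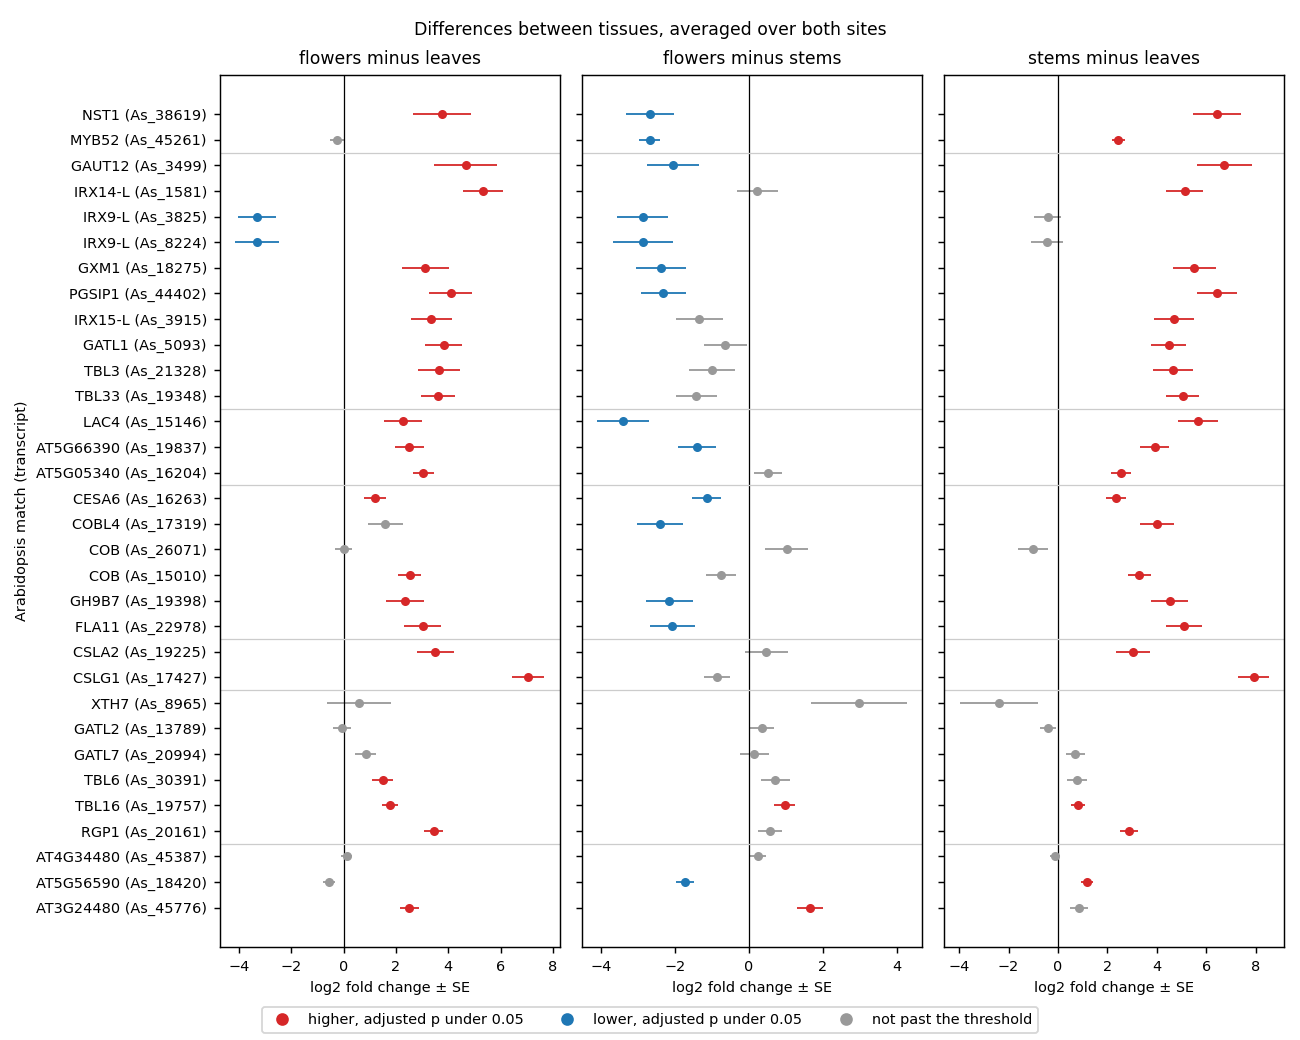
Log2 fold change with its standard error for each of the 32 transcripts between tissues, averaged over both sites, from edgeR's quasi-likelihood fit to 18 libraries. Flowers and stems exceeded leaves for 22 and 23 transcripts, and the flower to stem panel has 14 transcripts lower and 2 higher.

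Other transcripts of these pathways that the study's lists name moved in part with the members. Of 5, those similar to CESA4, CESA7, CESA8 and 4CL2 were higher in stems than in leaves, with log2 fold changes of 4.71, 4.51, 4.57 and 3.23. The transcript similar to FAH1, which like 4CL2 acts in the phenylpropanoid pathway to lignin precursors, was lower, by -1.87 (SE 0.50, adjusted p = 0.00852).

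Flowers also carried more of most members than leaves did. Of the 32, 22 were higher and 2 lower, where 25.5% of all transcripts tested were higher and 21.1% lower, and the members' median log2 fold change was 2.51 against 0.01. With the 3 transcripts at 0 in the subtropical leaves set to their bounds, the median was 2.43. Within subtropical trees the members' median was 3.84, with 27 of the 32 above 0. Within equatorial trees it was 1.25, with 25 above 0. Low values in the subtropical leaves had helped to list 30 of the members, so these calls are not independent of that choice. Of the 22 higher, 15 were higher in the flower than in the leaf in 6 of 6 trees and 7 in 5 of 6. Such counts by tree take the flower library labelled Eq6 as tree Eq6. The smallest adjusted p were those of CSLG1, RGP1 and AT5G05340. Flowers had 11.1, 26.2 and 10.4 CPM of CSLG1 at the subtropical site and 27.0, 14.6 and 17.9 CPM in those labelled equatorial, all above every leaf (fitted log2 fold change 7.04, SE 0.63, adjusted p = 9.78e-07). RGP1 reached 94.1, 38.0 and 65.9 CPM in subtropical and 88.1, 53.4 and 63.5 CPM in flowers labelled equatorial, again above every leaf (log2 fold change 3.44, SE 0.37, adjusted p = 2.18e-06).

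AT5G05340 is a peroxidase implicated in lignin formation in Arabidopsis. Its transcript (As_16204) had 305, 105 and 126 CPM in subtropical and 191, 87.6 and 218 CPM in flowers labelled equatorial, against 9.57, 12.7 and 9.71 CPM in subtropical and 78.2, 19.98 and 21.6 CPM in equatorial leaves (log2 fold change 3.05, SE 0.42, adjusted p = 2.44e-05). Only the Eq4 leaf came near the flowers. LAC4 and CESA6 were the members whose call was lost when 1 library was left out. LAC4 had an adjusted p of 0.0524 without the Eq4 flower, and CESA6 0.051 to 0.078 without the Eq5 or St1 flower or the St1, St2, Eq5 or Eq6 leaf. Calls gained were COBL4 without the flower labelled Eq6, GATL7 without the St4 leaf and AT5G56590, lower, without the St1 flower.

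The 2 members lower in flowers were those similar to IRX9-L. As_3825 was counted 0, 0 and 1 times in flowers St1, St2 and St4 and 2, 1 and 0 times in flowers labelled Eq4, Eq5 and Eq6, and As_8224 2, 0 and 0 times and 4, 1 and 0 times. Both were thus near the limit of detection in flowers, below the leaf of the same tree in 6 of 6 trees (log2 fold changes -3.30, SE 0.72, adjusted p = 0.00149, and -3.31, SE 0.83, adjusted p = 0.0039). Subtropical leaves were also low, with 2, 2 and 3 counts of As_3825 and 2, 6 and 7 of As_8224. These calls therefore rest largely on the equatorial leaves, whose high values had listed both transcripts, and are not independent support. When counts were halved and rounded up, 1 of the 2 was still tested and called.

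Flowers were lower than stems for 14 members and higher for 2, where 18.2% of all transcripts tested were lower and 19.1% higher, and the median log2 fold change was -1.08 against -0.09. Lower in flowers were both regulators, 5 of 10 xylan members, 2 of 3 lignin oxidases, 4 of 6 of the cellulose group and AT5G56590. These counts rested on the Eq6 stem. Without it 8 were lower and 5 higher, where 14.3% of all transcripts were lower and 18.4% higher, and the members' median was -0.29. Without both the Eq6 stem and the flower labelled Eq6, a choice made after seeing the data, 6 were lower and 5 higher, a share near the 17.0% and 18.2% of all transcripts, and the median was -0.22. The 6 were NST1, MYB52, LAC4, AT5G56590 and both IRX9-L transcripts. Of these, As_3825 did not pass the filter when stems and flowers were fitted without the leaves. The tree block left 13 lower and 2 higher.

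MYB52 differed most clearly between these tissues. Its flowers had 2.16, 2.72 and 2.35 CPM at the subtropical site and 1.86, 3.94 and 2.46 CPM in those labelled equatorial, all far below the lowest stem (log2 fold change -2.70, SE 0.28, adjusted p = 3.44e-06). AT5G56590 had 6.47, 2.45 and 4.18 CPM in subtropical and 8.16, 8.01 and 4.44 CPM in flowers labelled equatorial, below every stem (log2 fold change -1.73, SE 0.24, adjusted p = 4.73e-05). LAC4 had 14.1, 24.0 and 9.14 CPM in subtropical and 56.9, 25.2 and 10.9 CPM in flowers labelled equatorial, lower than the stem in 5 of 6 trees, all but Eq4 (log2 fold change -3.41, SE 0.70, adjusted p = 0.00132). For AT5G66390, with 50.8, 34.6 and 37.3 CPM in subtropical and 70.8, 27.5 and 43.6 CPM in flowers labelled equatorial, the difference (log2 fold change -1.40, SE 0.52, adjusted p = 0.0445) was lost in 8 of 12 fits without 1 library, with adjusted p up to 0.374.

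The calls of GAUT12 and CESA6 were as fragile, lost in 8 and 7 of those 12 fits, and GXM1, GH9B7 and FLA11 were lost without the Eq6 stem alone. TBL33 (log2 fold change -1.42, adjusted p = 0.0544) was called lower without the Eq4 or the Eq5 stem, and CSLG1 (-0.87, adjusted p = 0.0738) without the St2 flower or the St1 stem.

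TBL16 and AT3G24480 were higher in flowers than in stems in 6 of 6 trees. TBL16, of the same acetyltransferase family as TBL33, had 5.93, 6.95 and 8.88 CPM in subtropical and 21.9, 11.6 and 11.0 CPM in flowers labelled equatorial, against 4.00, 2.09 and 6.14 CPM in subtropical and 5.98, 6.07 and 8.68 CPM in equatorial stems (log2 fold change 0.96, SE 0.29, adjusted p = 0.0145). AT3G24480, an extensin-like protein with leucine-rich repeats, had 73.8, 34.1 and 108 CPM in subtropical and 123, 240 and 68.5 CPM in flowers labelled equatorial. Its stems had 23.4, 17.1 and 64.0 CPM in subtropical and 31.98, 24.3 and 32.4 CPM in equatorial trees (log2 fold change 1.66, SE 0.35, adjusted p = 0.0017). Without the Eq6 stem, IRX14-L, XTH7 and RGP1 were also called higher in flowers, with log2 fold changes of 1.51, 4.84 and 0.93.

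**Figure D3:**
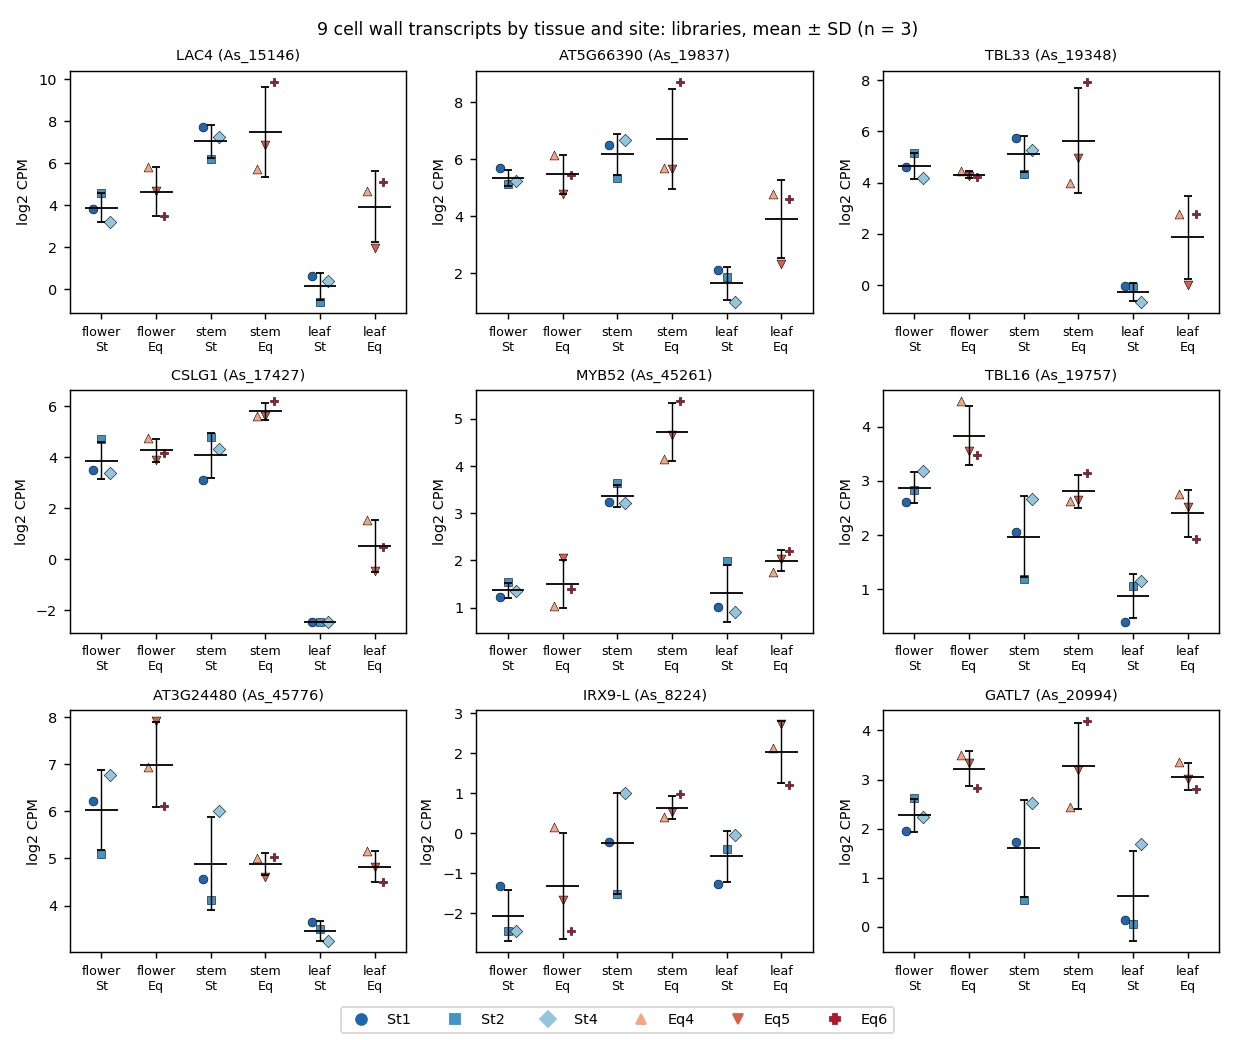
Log2 CPM (prior count 2) of 9 transcripts in each library, by tissue and site, with the mean and SD of 3 trees as line and bar. LAC4, AT5G66390 and TBL33 peak in the Eq6 stem, TBL16 and AT3G24480 are highest in flowers, and IRX9-L (As_8224) is highest in equatorial leaves.

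In leaves, the comparison that chose 30 of the members, all 30 had lower levels in every subtropical leaf than in any equatorial leaf. Of all 28243 transcripts tested, 10.0% did so and 9.51% did the reverse. Of the 30, 19 passed the filter on low counts in leaves. Where the subtropical leaves had over 3 counts in sum, in 25 members, log2 fold changes of the subtropical over the equatorial leaves ran from -6.79 (XTH7) to -1.37 (AT3G24480), with a median of -2.63. With no subtropical counts, NST1, GAUT12 and CSLG1 were at least 11.2-, 17.5- and 14.1-fold lower there. AT3G24480, with the smallest change of those 25, had 12.3, 11.1 and 9.26 CPM in subtropical and 35.6, 28.1 and 22.3 CPM in equatorial leaves. MYB52 and GATL2 had been listed for stems alone, so their place outside the leaf list was also set by the leaf values and is described without a test. Their log2 fold changes in leaves were -0.63 (SE 0.42) and 0.40 (SE 0.58). GATL2 had 2.85, 4.46 and 1.58 CPM in subtropical and 3.83, 1.89 and 1.01 CPM in equatorial leaves, which overlap.

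The equatorial leaves were not alike. As a description made after the values were seen, 14 members had more than 2 times the level of the Eq5 leaf in both the Eq4 and the Eq6 leaf, as CESA4, CESA7 and CESA8 did. These 14 are NST1, 8 of the xylan group, LAC4, AT5G66390, COBL4, GH9B7 and FLA11. LAC4, at 25.3 and 34.5 CPM in the Eq4 and Eq6 leaf, had 3.78 CPM in the Eq5 leaf, closer to the 0.475 to 1.37 CPM of subtropical leaves. All 14 were higher in stems than in leaves, and in the Eq6 stem all 14 were 7.83 to 14.3 times the median of the other 5 stems.

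In 7 members the Eq4 leaf alone was more than 2 times either other equatorial leaf. They are XTH7, CSLA2, CSLG1, GATL2, CESA6, AT5G05340 and the COB transcript As_15010. XTH7, which cuts and rejoins xyloglucan in growing walls, had 0, 0.38 and 0.23 CPM in the subtropical leaves and 69.7, 4.99 and 0.60 CPM in the equatorial ones, the first being Eq4. Its fold change in leaves therefore rests largely on 1 tree. For 6 of the 7 the Eq6 stem was 2.20 to 3.65 times the median of the other stems, and XTH7 had a median of 0 there. The other 11 members showed neither pattern, and of them the IRX9-L transcripts were highest in the Eq5 leaf among the 18 libraries.

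**Figure D4:**
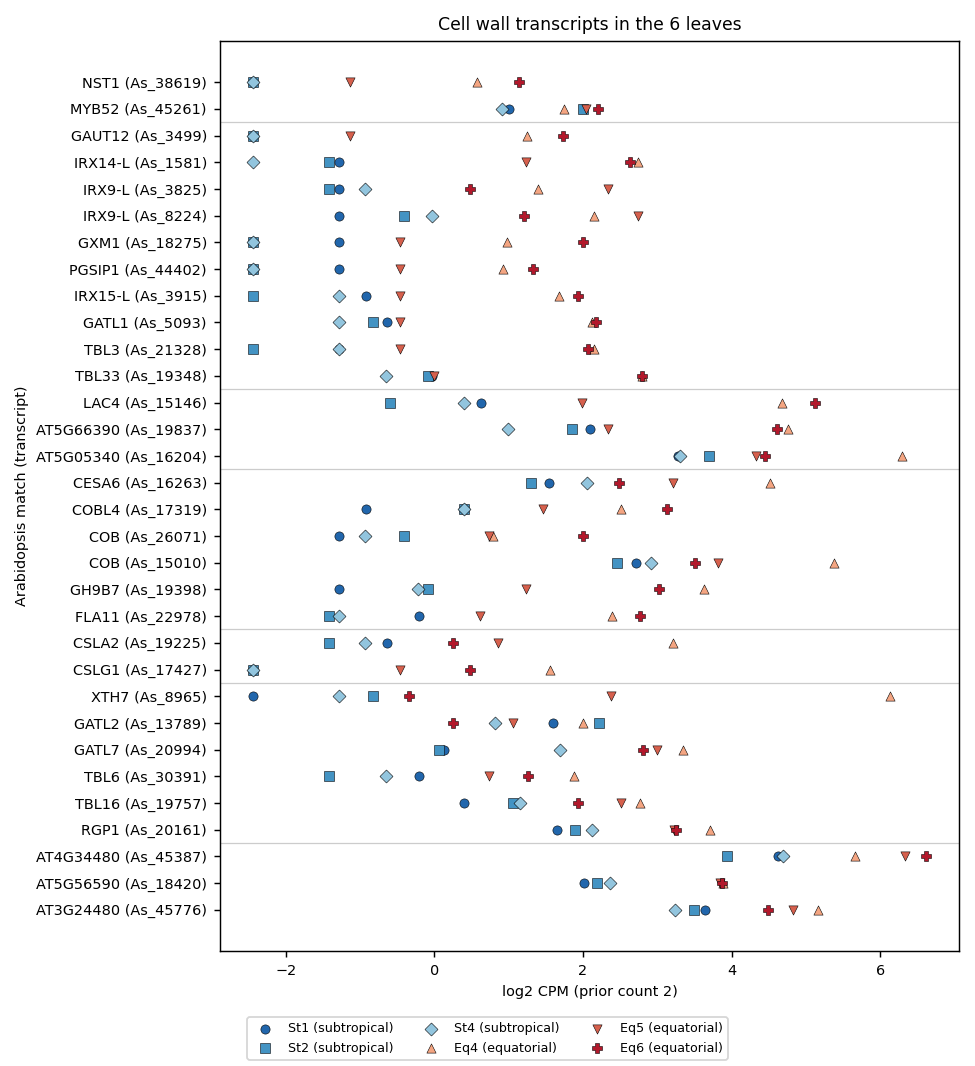
Log2 CPM (prior count 2) of the 32 transcripts in the 6 leaves, 1 marker per tree. The subtropical leaves lie left of the equatorial ones for the 30 transcripts listed for leaves, and the Eq5 leaf lies nearest to them for most secondary wall transcripts.

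The leaf of a tree was also compared with its own stem. Over the 23 members higher in stems, the leaf level was at the median 1.92%, 5.497% and 2.17% of the stem level in St1, St2 and St4, and 63.2%, 8.83% and 4.81% in Eq4, Eq5 and Eq6. Eq4 thus stood apart from the other 5 trees. CESA4, CESA7 and CESA8 had 51.7% to 62.7% in Eq4 and at most 7.32% in the other 5 trees. The summed level of the 6 photosynthesis transcripts was lower in the equatorial than in the subtropical leaves, and its part in these differences was not tested.

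In stems, the 29 members that had not been listed for stems were compared between sites. Their place outside the stem list was also set by the stem values. A lack of calls among them was thus largely fixed beforehand, and no conclusion is drawn from it. Of the 27 that passed the filter, 0 were called by the quasi-likelihood test, 0 by the exact test and 0 by DESeq2, where these called 0.143% higher and 0.0846% lower, 1.67% and 2.01% of all transcripts. At an unadjusted p under 0.05, 3 were lower in subtropical stems and none higher (3.94% and 5.09% of all). The exact test had 4 lower and DESeq2 5, beside 1238 and 1543 of all 34269 transcripts. The quasi-likelihood count of 3 was 11 without the Eq4 stem, beside 1521 of all 36595 transcripts. It was 0 without the Eq6 or the St2 stem, beside 1560 of 36104 and 1181 of 36125 transcripts. The median log2 fold change was -1.22 with 25 of 27 below 0, and 0.32 with 9 below 0 when the Eq6 stem was left out. Over all transcripts tested the median was -0.02. The Eq6 stem exceeded every subtropical stem in 25 of the 29 members, against 3 for the Eq4 and 4 for the Eq5 stem.

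The 3 members with the smallest p were GATL7, AT5G56590 and TBL6. GATL7, a galacturonosyltransferase-like protein, had 3.12, 1.29 and 5.54 CPM in subtropical and 5.21, 8.97 and 18.03 CPM in equatorial stems, which overlap between St4 and Eq4 (log2 fold change -1.67, SE 0.62, adjusted p = 0.484). TBL6 had 1.63, 0.88 and 0.96 CPM in subtropical and 3.56, 1.36 and 3.28 CPM in equatorial stems (log2 fold change -1.22, SE 0.50, adjusted p = 0.529). AT5G56590, whose values stand above, did not overlap between the sites (log2 fold change -0.73, SE 0.27, adjusted p = 0.487). It was the only such member of the 27, where 8.03% of all transcripts had every subtropical stem below every equatorial one and 7.95% above. The 3 members listed for stems are described only. MYB52 and CSLG1 values stand above, and GATL2 had 1.29, 1.04 and 0.84 CPM in subtropical and 3.88, 4.35 and 2.84 CPM in equatorial stems, without overlap.

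**Figure D5:**
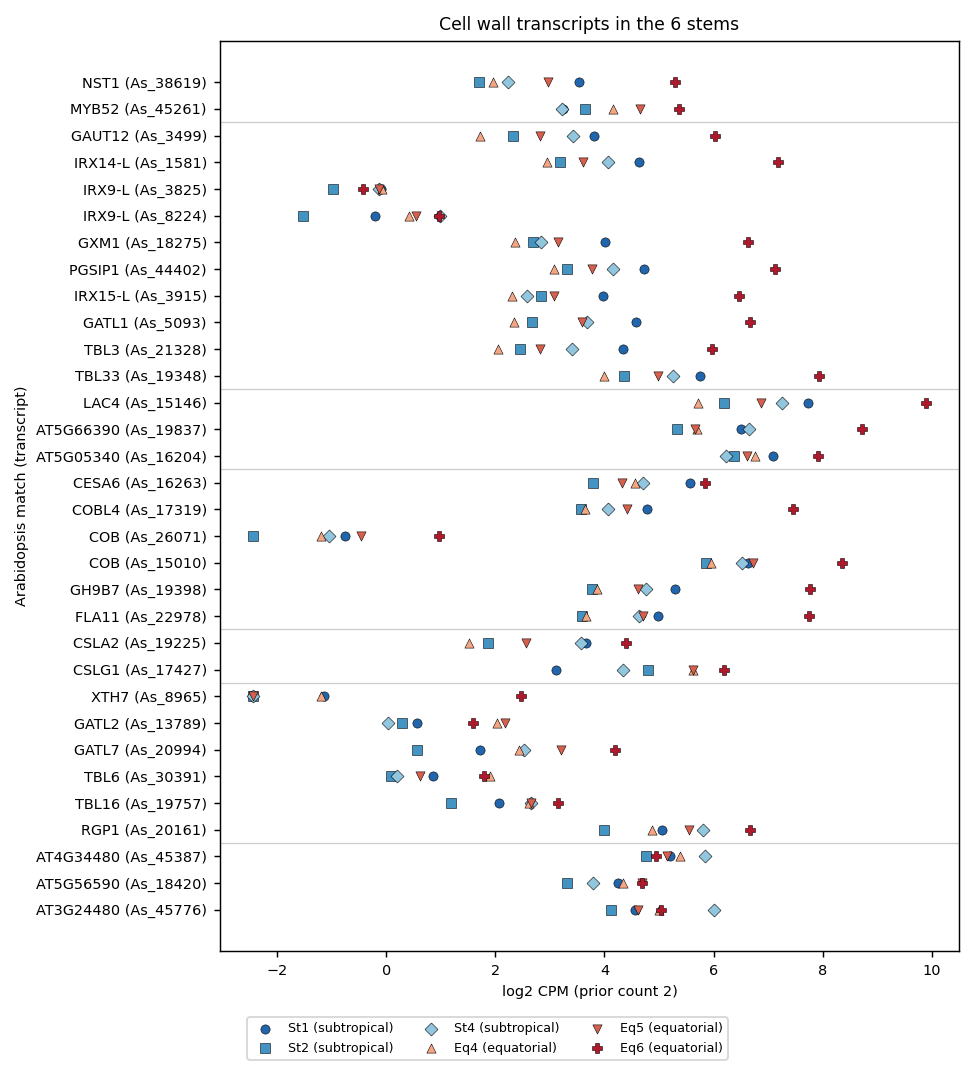
Log2 CPM (prior count 2) of the 32 transcripts in the 6 stems, 1 marker per tree. The Eq6 stem is the rightmost marker for 26 transcripts, while the other equatorial stems mix with the subtropical ones for most.

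Flowers took no part in the choice of the members. Of the 29 members that passed the filter in flowers, 0 were called by the quasi-likelihood test, which called 0 of all 29232 transcripts, and 0 by the exact test (0.0205% of all called) and by DESeq2 (0.133%). At an unadjusted p under 0.05, 5 were lower in subtropical flowers and none higher, by each of these tests, where the quasi-likelihood test had 3.05% of all transcripts lower and 2.61% higher. The members' median log2 fold change was -0.38 against 0.01. Without the flower library labelled Eq6, 30 members were tested and 0 called, the smallest adjusted p being 0.106, where 1.45% of all transcripts were lower and 0.343% higher. The median was then -0.59, and 7 members were lower at an unadjusted p under 0.05, beside 8.04% of all transcripts lower and 7.57% higher. These were COBL4, TBL6, TBL16, GATL7, AT4G34480, AT3G24480 and LAC4. Without the Eq4 flower the median was -0.07 and 1 member was lower at that level, beside 373 of all 32837 transcripts. There were 2 without the St1 flower, beside 772 of 30556 transcripts. There were 3 without the St4 or the Eq5 flower, beside 932 of 30196 and 576 of 30613 transcripts.

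The 5 with all libraries were GATL2, COBL4, TBL6, TBL16 and GATL7. GATL2 had 1.29, 1.63 and 1.57 CPM in subtropical flowers and 3.03, 3.43 and 5.85 CPM in those labelled equatorial (log2 fold change -1.43, SE 0.47, adjusted p = 0.866). COBL4 had 3.45, 4.49 and 1.83 CPM in subtropical flowers and 29.4, 9.28 and 4.68 CPM in those labelled equatorial (log2 fold change -2.10, SE 0.71, adjusted p = 0.866). TBL6 had 2.16, 0.68 and 2.18 CPM in subtropical flowers and 5.59, 6.74 and 3.04 CPM in those labelled equatorial (log2 fold change -1.55, SE 0.54, adjusted p = 0.866). In each of the 5 the subtropical flowers lay below all flowers labelled equatorial, although in COBL4 the library labelled Eq6 came close to them. In all, 5 of 29 members were separated this way, beside 4.99% of all transcripts, and none the other way, beside 5.44%. TBL16 and GATL7 had log2 fold changes of -0.99 (SE 0.37) and -0.93 (SE 0.36), both with adjusted p = 0.866.

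Whether the difference between sites was itself different in flowers and stems was tested for the 29 members not listed for stems. Stem values had helped to keep these off the stem list, so the test cannot decide the question for the list as a whole. Of 28 that could be fitted, 0 were called by edgeR and 0 by DESeq2, and 0 had an unadjusted p under 0.05 by either. Of all 36068 transcripts, edgeR called 0% higher and 0.00555% lower, and 1.41% were higher and 1.82% lower at an unadjusted p under 0.05. The median difference, flowers minus stems, was 0.74 on the log2 scale, and -0.60 without the Eq6 stem. The smallest p belonged to TBL33 (1.82, SE 1.11), AT3G24480 (-1.19, SE 0.78) and XTH7 (3.41, SE 2.37), each with an adjusted p of 0.999955. XTH7 had 5.82, 1.77 and 0.35 CPM in subtropical flowers and 11.0, 3.18 and 0.47 CPM in those labelled equatorial, and 0.27, 0 and 0 CPM in subtropical and 0.25, 0 and 5.34 CPM in equatorial stems, so few stem counts lie behind its value.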

How the data were processed

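The authors filtered paired reads, assembled transcripts without a genome, mapped reads with bowtie1 (Bowtie 0.12.2 in the submitters' notes) and deposited raw counts of uniquely mapped reads per transcript. Names are Arabidopsis best matches from the study's supplement. The members and lists were chosen with earlier results of these data known.

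From the deposited counts, edgeR 4.0.16 (limma 3.58.1, R 4.3.3) gave quasi-likelihood tests with TMM scaling and the filterByExpr filter by group, with p adjusted by Benjamini-Hochberg across every transcript in the fit and a threshold of 0.05, in place of the study's exact test, which was run as an alternative. Site differences, subtropical minus equatorial, used the 6 libraries of a tissue, tissue differences all 18 with both sites weighted equally, and the flower and stem comparison of site differences 12. SE was taken as the size of the log2 fold change divided by the root of F. Alternatives were DESeq2 1.42.0, RLE scaling, no filter, more than 1 CPM in 3 libraries, other sets of libraries in the fit and leaving out each library. Fits were tested on simulated data. Totals per library were 5055480 to 15802680 counts.

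By the labels, leaf, stem and flower libraries that share a name are from 1 tree, so the tree pairs tissues. Over 37626 transcripts, deviations from group means correlated by -0.02 (Eq4) to 0.40 (Eq5) between leaf and stem. P-values of site differences within 1 tissue measure the spread between trees. Those of tissue differences, and of the flower and stem comparison, come from fits without a tree term. They mix the spread between and within trees and treat libraries of the same tree as independent. Only the alternative with the tree as a block uses the pairing.

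Every member is named. Values per library are given for the member with most counts in each role group, the 3 with the smallest p in each comparison, those called where under 5 were called in a direction, and the 2 with primers.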

Additional observations from a re-analysis of the deposited data

How the results depend on the processing

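In stems or flowers, depth limited mainly IRX9-L, COB (As_26071) and XTH7, which had few counts there, and each site had only 3 trees. In leaves depth limited more members. Of the 30 listed for leaves, 19 passed the filter on low counts there, and 3 had 0 counts in all subtropical leaves. The direction counts for stems over leaves stayed within 1.5 times under all alternatives run. For flowers minus leaves, 1 in place of 2 members was called lower with halved counts, an alternative chosen after seeing that low counts are mostly even. For flowers minus stems, 5 were higher and 8 lower without the Eq6 stem, and 5 and 6 without both Eq6 libraries (chosen after seeing the data). Leaving out 1 library gave 22 to 24 members higher in stems than leaves, 21 to 23 higher and 2 to 3 lower in flowers than leaves, 2 to 5 higher and 8 to 15 lower in flowers than stems, and 0 in the comparisons of sites in stems and in flowers and in the flower and stem difference of sites. With the tree as a replicate block, the calls were 23 and 0 for stems minus leaves, 22 and 3 for flowers minus leaves (AT5G56590 gained), 2 and 13 for flowers minus stems (GAUT12 and FLA11 lost, CSLG1 gained) and 0 and 0 for the flower and stem difference of sites. The block changed no other call, and none was possible between sites because each tree grew at 1 site. Medians turned sign in leaves for MYB52 and GATL2, given as a description (-0.11, from -0.56 to 0.14 without 1 library), in stems (0.32 without the Eq6 stem, from -1.63 to 0.32 over libraries) and in the flower and stem difference of sites (-0.60 without the Eq6 stem, -0.80 without both Eq6 libraries, up to 1.12 without another). Without 1 library GATL2 reached -0.019 to 1.04 in leaves, and TBL33 and XTH7 reached lowest values of -0.23 and -0.26 and highest values of 2.27 and 6.59 in the flower and stem difference. Without both Eq6 libraries they were -0.26 and -0.80.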

Other observations

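Low counts were mostly even. Of the counts from 1 to 10, between 55.8% and 61.0% were even in each of the 18 libraries, and every library had more transcripts at 2 counts than at 1, whereas above 100 and up to 1000 counts the even share was 48.8% to 50.4%. Of the members' own counts of 1 to 10, 68 of 85 were even. Halving all counts moved 1 count of members by over 1.5 times, as given above.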
